A study of Canis lupus familiaris with 109 samples.

Results

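The positions described here are cytosines of the dog genome with few listed neighbours in a captured blood methylome. They were methylated in most, but not all, of the DNA. A position belonged if no more than 3 listed positions, itself included, lay within 100 bp on either side of it, and if its mean methylation fraction over 95 libraries lay from 0.5 to 0.9. The rule was met by 28642 of the 304191 listed positions (9.42%) and by 39% of the 73373 sparse positions of any level. They are called members hereafter. The members were thus selected on the mean fractions of these 95 libraries and on the layout of the list, so both are given as a description and not as a finding.

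The study profiled blood DNA of domestic dogs (Canis lupus familiaris) by capture and bisulfite sequencing, a chemistry that turns unmethylated cytosines into bases read as thymine and spares methylated ones. The labels list 109 samples, of which 94 fall into life stages set here from the labelled age. Ages in the 13 juvenile samples were 0.134 to 0.455 years, the 6 adolescent samples 0.559 to 1.9 years, the 35 mature samples 2.24 to 6.9 years and the 40 senior samples 7.33 to 14.5 years. A further 6 samples were repeat captures of dogs captured before, 1 was used with these repeats alone, and 8 were labelled as of low coverage. Labelled ages were 0.384 to 15.5 years in the 6 repeat captures and 15.5 years in the sample used with them alone. In the 8 samples of low coverage they were 0.455 to 9.33 years. All are whole blood, a mixture of white cell types whose proportions were not given. Because the library codes in the tables match no sample label, the age, sex, life stage and dog behind each library are unknown here, and ranges and medians over unassigned libraries stand in place of group comparisons. The tables give fractions without read counts, so the depth behind each value is unknown.

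In mammalian DNA most methylation sits on cytosines followed by guanine (CpG), where both strands usually carry the same state because a maintenance enzyme, DNMT1, copies the mark onto the new strand after replication. Dense clusters of CpGs, called CpG islands, are mostly unmethylated and often hold gene starts. The CpGs of the sparse remainder of the genome are mostly methylated, and some of them are known to lose methylation gradually as cell lineages divide. Coordinates are those listed in the tables on the CanFam3.1 build. Whether they count from 0 or from 1 was not settled, which leaves an uncertainty of 1 bp. No sequence or gene annotation on this build was used here, so positions are named by coordinate alone. Sparse and dense hereafter describe the list of positions, since the CpGs of the genome itself were not counted.

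Most members lay close to the upper end of the range. Their mean fractions had a median of 0.819, with 5% of members under 0.566 and 5% over 0.895. Of the members, 57.1% lay from 0.8 to 0.9, 22.7% from 0.7 to 0.8, 12.2% from 0.6 to 0.7 and 7.99% from 0.5 to 0.6.  At the upper bound, chr1:75834758 and chr6:55414503 were inside at a mean of 0.9, and chr26:311593 and chr5:87772093 were outside at 0.90001. At the lower bound, chr2:81543466 and chr5:33136876 were inside at 0.5, and chr31:25830642 and chr14:32848272 were outside at 0.49989. Among the other sparse positions, 26192 lay above 0.9, 9058 from 0.1 to 0.5 and 9481 under 0.1.

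Single libraries spread over the upper part of the scale at a typical member. Over members, the lowest of the 95 libraries had a median of 0.5 and the highest a median of 1, and 80.3% of members reached 1 in at least 1 library. A library under 0.1 was found at 1443 members (5.04%). The standard deviation over libraries had a median of 0.0908 and ran from 0.0293 to 0.386. It was larger where the level was closer to 0.5, at a median of 0.129 for members from 0.5 to 0.6 and 0.0796 for those from 0.8 to 0.9. Positions of the same level in dense stretches, with 10 or more listed positions within 100 bp, had similar medians of 0.131 and 0.0811 in these bins. Cells with more than 2 decimals, treated as filled in, made up 1.28% of member values and 0.781% of all values. The libraries coded SCE_CF_Pilot_4_S4 and L1_A7 held most of them, at 31.9% and 30.1% of their member values.

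Members lay on all 38 autosomes, and many had no other listed position within 100 bp. There were 8830 members of density 1, 10796 of density 2 and 9016 of density 3. Their median levels, at 0.815, 0.822 and 0.822, were nearly alike. The nearest listed position was a median of 2357 bp away for members of density 1, 32 bp for density 2 and 23 bp for density 3, and 2706 members (9.45%) had none within 10000 bp. Members made up 13.8% of the listed positions of chromosome 38, the highest share, and 7.44% on chromosome 24, the lowest. Counted among sparse positions alone, the share ran from 34.4% on chromosome 6 to 45.3% on chromosome 21.

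Where both strands of a CpG could be compared, the levels on them were close. Positions listed 1 bp apart were taken as the 2 strands of a CpG, although neighbouring CpGs can also place cytosines 1 bp apart. With both tables pooled, 10935 members had a listed partner 1 bp after them alone, 10896 had one 1 bp before them alone, 110 had both, so that their strand was left unassigned, and 6701 had neither. In the main table, 1099 pairs of members lay 1 bp apart. Their mean fractions differed by a median of 0.0198, and 99.5% of the pairs differed by no more than 0.1. In 1098 of these pairs no further position was listed 1 bp outside the pair in either table. A further 242 members had a partner in the main table that was not a member. Of these partners, 217 lay above 0.9, 23 under 0.5 and 0 under 0.1, and the other 2 were in the level range with another density. The rule fixes the level of both strands within its range, so the closeness of pairs is partly given by the choice.

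The share of sparse positions that were members grew with distance from unmethylated clusters. A run was a chain of at least 10 listed positions with no gap over 100 bp, and 5138 of the 7274 runs had a level under 0.1. Of the 450 sparse positions inside such a run, 18 (4%) were members and 76.7% were under 0.1. Members made up 9.6% of the sparse positions 1 to 500 bp from a run, 22% of those at 501 to 1000 bp and 30.6% of those at 1001 to 2000 bp. Their share was 34.2% for distances of 2001 to 5000 bp and 34.4% for 5001 to 50000 bp. It was 39.4% for distances of 50001 to 200000 bp, and 46.4% beyond that. The unmethylated share fell over the same classes to 7.95% beyond 200000 bp. Positions above 0.9 took a different course, with their highest share, 40.1%, at 5001 to 50000 bp and 35.3% beyond 200000 bp. The median member was 160436 bp from the nearest unmethylated run, and 44.6% of members were more than 200000 bp away. Runs were built from the listed positions alone, so shorter or unlisted unmethylated clusters can lie closer than these distances. The members' own level had a median of 0.639 inside runs and of 0.738, 0.761 and 0.799 in the next 3 classes, and then lay between 0.819 and 0.823 in all farther classes.

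**Figure D1:**
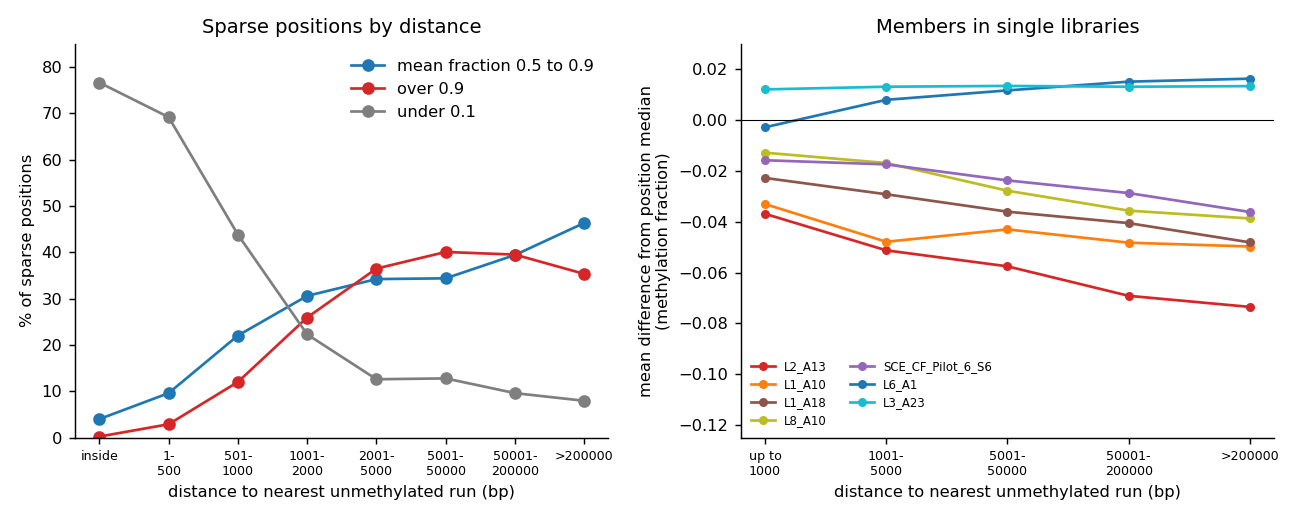
Left, the percentage of sparse positions (y axis) with a mean fraction from 0.5 to 0.9 (the members), over 0.9 or under 0.1, by distance in bp to the nearest unmethylated run (x axis); the members' share was 4% inside runs and 46.4% beyond 200000 bp. Right, the mean difference of members in a single library from each position's median over 95 libraries (y axis, methylation fraction) by the same distance for 7 libraries; L2_A13 is lowest, at -0.0369 within 1000 bp and -0.0735 beyond 200000 bp.

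The repeat table, which holds 6 libraries coded CHYB6 and 1 coded Pilot, lists 1812277 positions and more neighbours of members than the main table. It held 22734 members (79.4%), against 89.0% of all listed positions. There the median density of members was 4, 68.4% of members had a density over 3 and 10.5% had 10 or more. The median density of dense positions of the same level was 22 in that table. Positions found in the repeat table alone and lying 2 to 100 bp from a member numbered 35671. They had not entered the rule, and their mean fraction over the 6 libraries with codes starting CHYB6 had a median of 0.88, with 44.0% from 0.5 to 0.9, 43.0% above 0.9 and 2.18% under 0.1. Over all 1522121 positions found in the repeat table alone, the median was 0.0167, with 11.2% from 0.5 to 0.9 and 62.7% under 0.1. No test was made of this difference, since positions are not replicates of a condition. The sets were not matched for density or for distance from unmethylated runs.

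In these 6 CHYB6 libraries, whose values the rule had not used, most members had a similar level. They are not independent dogs, since 5 of the 6 share a number with a Pilot library among the 95. The median of their mean over the 22734 members was 0.82. It lay from 0.5 to 0.9 at 87.9% of members, above 0.9 at 10.8% and under 0.5 at 1.39%. Across members, the mean over CHYB6 libraries and the mean over the 95 libraries had a correlation of 0.912, given as a description. By level bin of the main table, the CHYB6 median was 0.563, 0.663, 0.763 and 0.867, each within 0.01 of the main median of the same members.

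Averaged over all members, single libraries differed by less than 0.1. The library mean over members had a median of 0.787, a lowest value of 0.727 in the library coded L2_A13 and a highest value of 0.808 in L6_A1. After L2_A13, the lowest libraries were L1_A10 at 0.746, L1_A18 at 0.752 and L8_A10 at 0.76, and L3_A23 was second highest at 0.807. In dense positions of the same level the libraries ran from 0.721 to 0.777 with a median of 0.753, and L2_A13 was at 0.739 and L6_A1 at 0.75 there. The 10 prefixes of the library codes overlapped, with medians from 0.78 in the 8 libraries of prefix L6 to 0.791 in the 10 of prefix L2. What a prefix stands for is not given in the sources used here. In L2_A13 65.9% of members lay below their median over libraries, and 0.0978% of its member values were filled in. The share below the median was higher in L1_A10, at 70.0%.

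**Figure D2:**
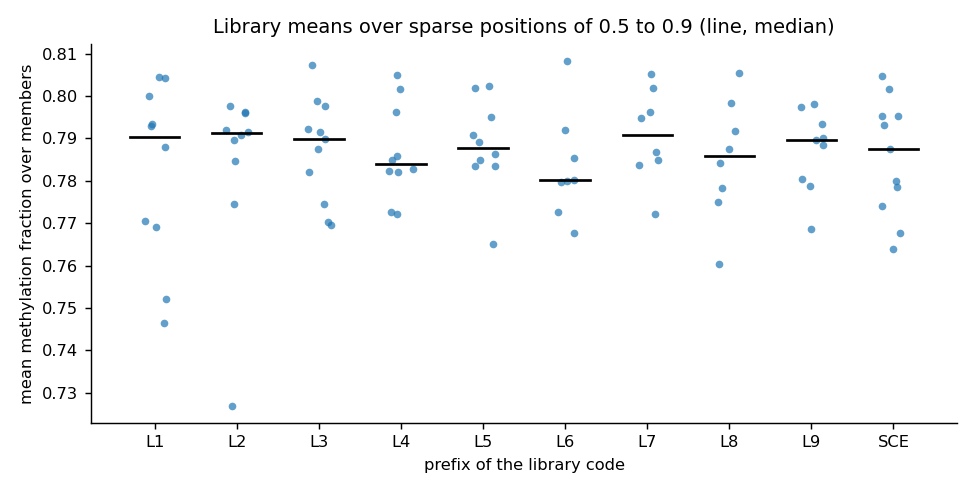
Mean methylation fraction over the 28642 members (y axis) in each of 95 libraries (points), by the prefix of the library code (x axis), with the median of each prefix as a line. The medians lie from 0.78 to 0.791, the ranges of the prefixes overlap, and the library L2_A13 stands lowest at 0.727.

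Libraries differed more at members far from unmethylated runs than at members near them. The standard deviation over libraries of the mean over members was 0.0118 for the 555 members inside or up to 1000 bp from a run and 0.0112 for the 2060 members at 1001 to 5000 bp. It was 0.0125 for members 5001 to 50000 bp away, 0.0141 for those 50001 to 200000 bp away and 0.0154 for the 12781 members beyond 200000 bp. Beyond 200000 bp it was 1.42 times the value for all members up to 5000 bp, and 1.27 times among members with a level from 0.8 to 0.9. The larger spread was thus found in the larger classes. L2_A13 differed from the median of each position by a mean of -0.0369 up to 1000 bp and -0.0735 beyond 200000 bp. L8_A10 moved likewise, by -0.0128 and -0.0387, while L3_A23, at 0.0121 and 0.0134, differed little with distance. L1_A10, the second lowest library, was at -0.033 up to 1000 bp, -0.0479 at 1001 to 5000 bp and -0.0498 beyond 200000 bp. Among members with a level from 0.8 to 0.9 L1_A10 was at -0.0506 up to 5000 bp and -0.0514 beyond 200000 bp, so it differed little there. L6_A1 was at -0.0028 up to 1000 bp and 0.0163 beyond 200000 bp.

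The spread between libraries also differed by density. The standard deviation of library means was 0.0156 at members of density 1, 0.0139 at density 2 and 0.0124 at density 3. It was 0.00972 at the 22010 positions of middle density (4 to 9) and 0.0118 at the 4229 dense positions of the same level. L2_A13 differed from the position medians by a mean of -0.0747 at density 1, -0.0683 at density 2 and -0.058 at density 3, and by -0.043 at middle density and -0.0223 at dense positions. L1_A10 was at -0.0501, -0.0479 and -0.0449 at densities 1, 2 and 3. It was at -0.0402 at middle density and, lower than L2_A13, at -0.032 at dense positions. The orders by distance and by density were found after the values were seen.

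The repeat libraries gave a second measurement of 6 of these library means. Each CHYB6 library shares a number in its code with a library coded Pilot, and the labels describe captures repeated in 6 dogs, without tying codes to dogs. At 267 variant-like positions of the whole table (defined with the named positions), the Pilot library of the same number had the highest correlation with each CHYB6 library in 6 of 6 cases, from 0.854 to 0.968, against 0.284 to 0.663 for the closest Pilot library of another number. The labels do not say whether conversion and library preparation were repeated.

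Mean methylation over members was nearly the same in both libraries of a number. The means for numbers 1, 5, 6, 7, 8 and 10 were 0.783, 0.797, 0.764, 0.795, 0.79 and 0.808 in the CHYB6 libraries, and 0.78, 0.795, 0.764, 0.794, 0.788 and 0.806 in the Pilot libraries. The CHYB6 library was higher in 6 of 6 pairs, by 0.00041 to 0.00268, which is small beside the range over numbers of 0.0433 in CHYB6 libraries and 0.042 in Pilot libraries at the 22621 members measured in every pair. Over the 6 numbers Pearson's r was 0.999 and Spearman's rho 1. Exact permutation tests of the 720 pairings, two-sided, gave p = 0.00139 for r, the smallest it can give here, and p = 0.00278 for rho, with Benjamini-Hochberg adjusted values of 0.00417 and 0.00833 over 3 relations. Without the 2 numbers farthest from the median, 6 and 10, r was 0.996. Of the 6 Pilot libraries, number 1 is listed in the repeat table alone and the other 5 are among the 95 libraries.

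**Figure D3:**
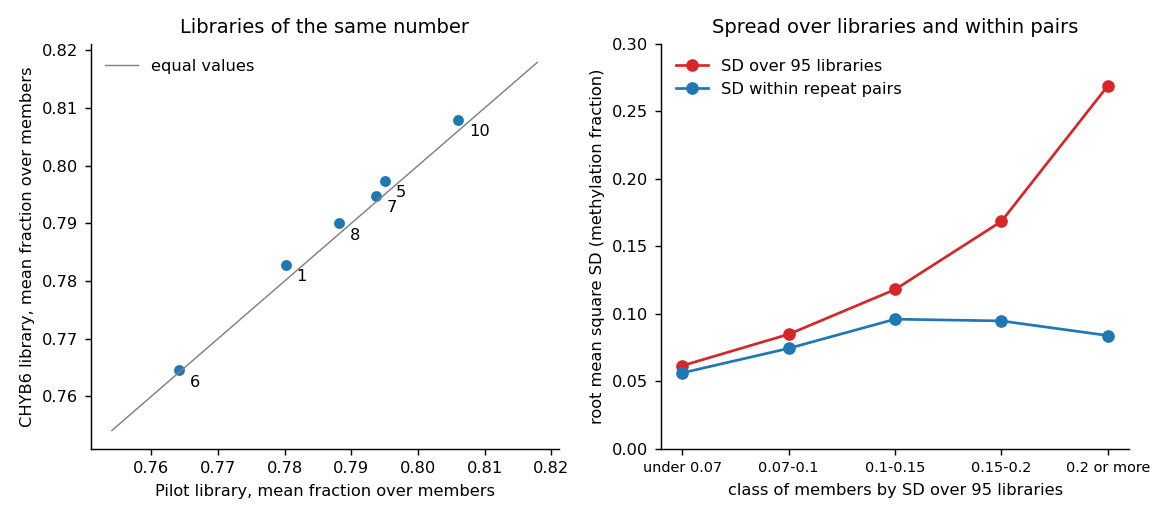
Left, mean methylation fraction over members of the CHYB6 library (y axis) against the Pilot library (x axis) of the same number, 1 point per number with a line of equal values; number 6 is lowest at 0.764 in both and number 10 highest. Right, root mean square standard deviation over 95 libraries and within repeat pairs (y axis, methylation fraction) for 5 classes of members by their standard deviation over libraries (x axis); the 2 lines lie at 0.0616 and 0.0563 in the lowest class and at 0.269 and 0.0839 in the highest.

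Number 6, the lowest, lay farther below the others at members far from unmethylated runs, in both of its libraries. Its CHYB6 library differed from the mean of the other 5 CHYB6 libraries by -0.0162 at members up to 1000 bp from a run, by -0.0239 at 5001 to 50000 bp and by -0.0362 beyond 200000 bp. Its Pilot library differed from the other 5 Pilot libraries by -0.0158, -0.0236 and -0.0341 in the same classes. In dense positions of the same level the differences were -0.00145 in CHYB6 and -0.00022 in Pilot libraries. The range over the 6 numbers was 0.0282 near runs and 0.0518 beyond 200000 bp in CHYB6 libraries, and 0.0288 and 0.05 in Pilot libraries. A single number was compared here with 5 others, and no test was made.

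At single members, most of the spread over libraries was also seen between the libraries of one number. The median absolute difference between the libraries of a pair was 0.06 to 0.08, and the standard deviation within pairs was 0.069 to 0.094. The variance within pairs came to 56.8% of the variance over the 95 libraries at members, to 52.3% at positions of middle density and to 49.6% at dense positions of the same level. At the sparse positions above 0.9 it came to 81.6%. Read depth, which sets part of the variance within pairs, is unknown.

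The share of variance within pairs fell with the spread of the member, most steeply from a standard deviation of 0.15. At the 3727 members with a standard deviation over libraries under 0.07 it was 83.5%, and the correlation of CHYB6 with Pilot over the 6 numbers had a median of 0.22. At the 10669 members from 0.07 to 0.1 the share was 76.9% and the median correlation 0.214. At the 6820 members from 0.1 to 0.15 the share was 66.2% and the median correlation 0.296. At the 717 members from 0.15 to 0.2 these were 31.6% and 0.667, and at the 688 members of 0.2 or more 9.74% and 0.941. Of these 688, 64 were variant-like. The 5 Pilot libraries that are among the 95 took part in choosing the classes, so the fall is partly given by the choice.

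Over all members, 897 (3.13%) had a standard deviation over 0.2 and 388 under 0.05. A position was called variant-like if at least 8 libraries lay under 0.12, at least 8 over 0.88 and at least 8 from 0.3 to 0.7, with at most 12 in the gaps. This found 77 members (0.269%), against 308 (0.101%) of all listed positions. The name describes the 3 levels alone, since no genotype was measured. Positions with 3 such levels tend to have a mean near the middle of the scale, which favours the level range of the rule, so the 2 shares are not compared by a test.

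The variant-like member with the largest spread was chr9:12557499, at density 2 and 249323 bp from the nearest unmethylated run. Its lowest, median and highest libraries were at 0, 0.58 and 1, with 26 libraries under 0.12, 29 from 0.3 to 0.7 and 30 over 0.88. The repeat libraries kept each number at its level. For numbers 1, 5, 6, 7, 8 and 10 the CHYB6 libraries read 0.65, 0, 0, 0.96, 0.96 and 0.86, and the Pilot libraries 0.55, 0, 0, 1, 0.89 and 0.95. The next listed position, chr9:12557522, is itself a member with a mean of 0.766 and a standard deviation of 0.11, and it followed chr9:12557499 with r = 0.611 over the 95 libraries.

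The other named variant-like members were similar in shape. At chr37:17102143 28 libraries lay under 0.12, 33 from 0.3 to 0.7 and 28 over 0.88, around a median of 0.53. Its neighbour 13 bp before, chr37:17102130, a member with a mean of 0.878, followed it with r = 0.491. At chr4:4811009, with a median of 0.56, these counts were 22, 34 and 32. The CHYB6 libraries of numbers 1, 5, 6, 7, 8 and 10 read 0.5, 0.51, 0.95, 1, 0.96 and 0.6 there, and the Pilot libraries 0.48, 0.5, 1, 0.92, 0.96 and 0.56. Its neighbour 8 bp before, chr4:4811001, had a mean of 0.976, a standard deviation of 0.0296 and r = 0.00865. The 3 positions thus differed in whether a close neighbour moved with them.

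The most variable member outside the variant-like rule, chr16:14657456, lay mostly at 2 broad levels. Its lowest, median and highest libraries were at 0, 0.76 and 0.95, with 31 libraries under 0.12, 8 from 0.3 to 0.7 and 14 over 0.88. The nearest listed position was 1926 bp away. For numbers 1, 5, 6, 7, 8 and 10 the CHYB6 libraries read 0.86, 0.5, 0.6, 0.87, 0 and 0, and the Pilot libraries 0.78, 0.5, 0.65, 0.79, 0 and 0. The libraries of a number differed by no more than 0.08. At chr1:93139259, with a median of 0.65, the libraries lay at 3 levels, 28 under 0.12, 28 from 0.3 to 0.7 and 26 over 0.88, with 13 in the gaps, against the 12 that the variant-like rule allows. Its neighbours 14 bp before and 5 bp after it had means of 0.978 and 0.957. At chr9:15459262, with a median of 0.6, 24 libraries lay under 0.12, 27 from 0.3 to 0.7 and 27 over 0.88. The CHYB6 libraries read 0.7, 0, 0, 0.94, 0.96 and 1, and the Pilot libraries 0.36, 0, 0, 0.91, 1 and 0.94. Number 1 differed by 0.34 between its libraries there, the largest such difference at the 7 named positions in the repeat table.

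The named members chr9:12557499 and chr9:15459262 moved together although 2901763 bp lie between them, with r = 0.965 over the 95 libraries. Of all listed positions, 9 had a correlation over 0.8 with chr9:12557499, of which 3 were members, and all 9 were on chromosome 9, from 552495 to 3913982 bp away. For chr9:15459262 the same counts were 9 and 3, all on chromosome 9, from 12298 to 5104272 bp away. The nearest of these was the member chr9:15471560, with a mean of 0.5, a standard deviation of 0.37 and r = 0.915. At the other 4 named variable members no listed position had a correlation over 0.8, and the highest was 0.632 at chr37:17102143, 0.493 at chr1:93139259, 0.439 at chr16:14657456 and 0.432 at chr4:4811009. These correlations share the libraries, were sought after the values were seen and carry no test.

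**Figure D4:**
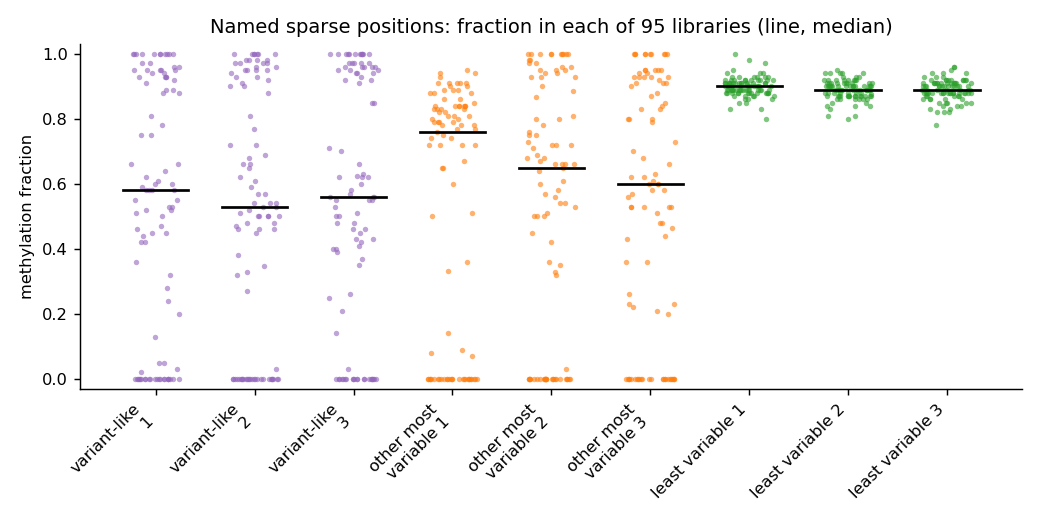
Methylation fraction (y axis) in each of 95 libraries (points) at 9 named members (x axis), with the median as a line. The variant-like members are chr9:12557499, chr37:17102143 and chr4:4811009, the other most variable chr16:14657456, chr1:93139259 and chr9:15459262, and the least variable chr36:2548370, chr1:28478409 and chr27:38345176; the last 3 have no library under 0.78.

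The least variable members lay at the upper end of the range. At chr36:2548370 the libraries ran from 0.8 to 1 around a median of 0.9, at chr1:28478409 from 0.8 to 0.95 around 0.89 and at chr27:38345176 from 0.78 to 0.96 around 0.89. Their standard deviations were 0.0293, 0.0294 and 0.0324. At chr27:38345176 the CHYB6 libraries of numbers 1, 5, 6, 7, 8 and 10 read 0.86, 0.94, 0.84, 0.93, 0.96 and 0.95, and the Pilot libraries 0.89, 0.93, 0.82, 0.92, 0.91 and 0.91. Number 6 was the lowest in both at this position. At chr36:2548370 the CHYB6 libraries read 0.93, 0.93, 0.91, 0.91, 0.91 and 0.94, and the Pilot libraries 0.9, 0.85, 0.94, 0.88, 0.87 and 0.92, with number 6 highest among the Pilot libraries. At chr1:28478409 they read 0.89, 0.88, 0.91, 0.91, 0.91 and 0.92 in CHYB6 libraries and 0.87, 0.9, 0.86, 0.9, 0.89 and 0.92 in Pilot libraries, with number 6 lowest in the Pilot libraries alone.

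Members also formed runs without any other listed position between them. With gaps of up to 5000 bp, the longest held 10 members over 5844 bp at chr9:21243969-21249812, with member means from 0.73 to 0.895. The mean over the run was 0.729 in L2_A13, the lowest library, 0.834 in the median library and 0.911 in L5_A12, the highest. A run of 9 members at chr5:59487408-59496311 had 0.633 in L2_A13, a median of 0.756 and 0.841 in L7_A16. Another 9 members at chr9:21356092-21367570 had 0.64 in L8_A10, a median of 0.771 and 0.914 in L5_A18. The correlation between members of a run over the 95 libraries had a median of 0.0323, 0.0943 and 0.106. Even members 1 bp apart had a median of 0.125. Variation between repeat libraries lowers such values, so they cannot show whether the members of a run move together. Averaging removed much of the difference between repeat libraries, whose run means differed by a median of 0.016 over the 6 numbers in the first run. The median difference was 0.0272 in the second run and 0.024 in the third, where 5 members were in the repeat table.

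From 2 bp on, the median likeness of neighbouring members over libraries fell with distance. With variant-like positions left out, pairs of members 2 to 10 bp apart had a median correlation of 0.415 over 956 pairs. The median was 0.239 for pairs 11 to 50 bp apart, 0.133 for 51 to 100 bp and 0.0841 for 101 to 500 bp. It was 0.0487 for 501 to 2000 bp and 0.0381 for 2001 to 10000 bp, where 0.244% of 8192 pairs had a correlation over 0.5. Dense positions of the same level had medians of 0.516 for pairs 2 to 10 bp apart, 0.435 for 11 to 50 bp and 0.388 for 101 to 500 bp. Theirs were 0.261 for 501 to 2000 bp and 0.0492 for 2001 to 10000 bp. Members 1 bp apart, taken as the strands of a CpG, had a median of 0.125 over 1097 pairs, and dense positions 0.263. The median was also 0.125 over the 1096 member pairs with no further position listed 1 bp outside them. Read sharing between close positions was not tested. Pairs within a set share positions and libraries, so these are descriptions without p-values.

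**Figure D5:**
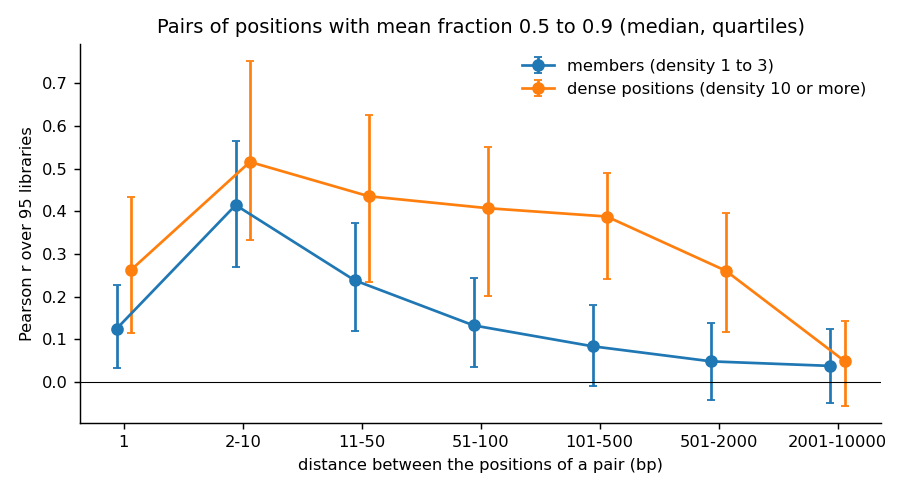
Median Pearson correlation over 95 libraries (y axis, bars from the lower to the upper quartile of pairs) of pairs of members and of pairs of dense positions of the same level, by the distance in bp between them (x axis). Members have 0.415 at 2 to 10 bp and 0.0841 at 101 to 500 bp, where dense positions have 0.388.

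Across libraries, the mean over members was weakly related to other classes of positions. With the mean over dense positions of the same level, Pearson's r was 0.283 over 95 libraries (two-sided permutation test with 100000 resamples, p = 0.00528, adjusted 0.00792) and Spearman's rho 0.221 (p = 0.0316, adjusted 0.0316). Without the 2 libraries farthest from the median of the dense mean r was 0.245. Within the 10 code prefixes r ran from -0.701 to 0.784 with a median of 0.239, so the relation did not hold within every prefix. The mean over sparse unmethylated positions ran from 0.0178 to 0.16 over libraries, with a median of 0.027. With this mean, r was -0.206 (p = 0.0453, adjusted 0.0453) and rho -0.222 (p = 0.0311, adjusted 0.0316). It was -0.323 (permutation p = 0.00154) when 0.01 replaced each value of 1.0 at positions whose median lay under 0.05. Without the 2 farthest libraries, L4_A7 at a sparse unmethylated mean of 0.16 and L8_A5 at 0.158, r was -0.161. Within prefixes r ran from -0.794 to 0.528. Both relations are small beside the 0.999 between repeat libraries. The 3 relations were adjusted together.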

How the data were processed

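The labels' protocols describe whole-blood DNA prepared and bisulfite converted by the Roche SeqCap Epi protocol. Bowtie2 2.1.0, Bismark 0.14.3 and Trim Galore are listed, with no role, in the submitters' processing notes, which give CanFam3.1 as the genome build. The authors deposited methylation fractions (0 to 1) per position and library, without counts, so depth is unknown and no coverage minimum was applied. Cells with more than 2 decimals were treated as filled in. The table mapped to human probes was not used here.

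Density, level and all ranges were computed from the fractions with NumPy 2.4.6 and SciPy 1.17.1 under Python 3.11.15, figures were drawn with Matplotlib 3.10.9, and the procedures were checked on simulated data. Means were rounded to 9 decimals before the bounds were applied. Runs of positions were classed by the median over libraries of their mean fraction. Relations across libraries were tested by permutation, 2-sided. Positions were named by rule: the 3 variant-like and 3 other members with the largest standard deviation, the 3 with the smallest, the 2 on each side of each bound and the 3 longest runs of members. Neighbours of named positions and libraries named singly were picked with their values in view.

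The members and lists were chosen with earlier results of these data known. Library codes match no label, so the test of age, sex and life stage set out in the design was not run.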

Additional observations from a re-analysis of the deposited data

How the results depend on the processing

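The count of members was 28642, against 37983 with a window of 50 bp, 23805 with 200 bp and 8830 with density 1 only. The median library mean was 0.787, and 0.82 when the median over members replaced the mean. The median neighbour correlation was 0.415 at 2 to 10 bp and 0.125 for pairs 1 bp apart. The lowest library mean was 0.727, and 0.746 without L2_A13. A count was called moved past 1.5 times the value reported, which the counts with windows of 50 and 200 bp were not. A library mean was called moved past 1 standard deviation over libraries. By these margins 4 of 29 alternatives moved a value: density 1 only, the median over members, the pairs 1 bp apart and the lowest library without L2_A13. None of the 29 changed a direction or a side of the threshold, but the correlation with sparse unmethylated positions was -0.323 (permutation p = 0.00154) with 0.01 in place of 1.0, against -0.206. The correlations without the 2 farthest libraries, 0.245 for dense and -0.161 for sparse unmethylated positions, are not among the 29. They were not tested, so no p-value is given for them. The one for sparse unmethylated positions was smaller in size than the -0.206 with a permutation p of 0.0453. The cause of these changes was not tested, except that the density rule itself fixes which positions are counted. The alternatives without L2_A13, those for movement by distance and the pairs 1 bp apart were chosen after seeing the data. No paired analysis was possible because no labelled group could be tied to the rows of the tables, so the 6 pairs of repeat libraries rest on the numbers in their codes. Without read counts, the precision of single values cannot be given.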

Other observations

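The rule holds each member's level from 0.5 to 0.9, which limits how far regions can differ. Over 731 windows of 1 Mb with at least 15 members, the median level of a window ran from 0.7 to 0.886 with a median of 0.819. The lowest were on chromosome 8 from 16000000 to 17000000 and on chromosome 24 from 17000000 to 18000000, and the highest on chromosome 16 from 9000000 to 10000000. Among 403 pairs of neighbouring windows the correlation was 0.101.

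The low level of L2_A13 was present on every autosome, with mean differences from the position medians of -0.0814 on chromosome 23 to -0.0523 on chromosome 26. The first principal component of members over libraries held 6.23% of the variance. The 16 libraries with the second code elements A1, A3 or A4 had a median score of 0.222 on it, from -0.0877 to 0.294, and the 79 others a median of -0.05, from -0.127 to 0.114. Their means over members overlapped, with medians of 0.798 and 0.785, and the 3 libraries with the element A23 had a median of 0.802. The elements A1, A3 and A4 were chosen with earlier results of these data known, so their scores are a description. What the code elements stand for is not given in the sources used here.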
